A study of Rattus norvegicus with 46 samples.

Results

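The myostatin, follistatin and insulin-like growth factor axis was followed here through 5 genes of rat gastrocnemius muscle: Mstn (probe set 10927805), Fst (10821408), Igf1 (10894695), Igf1r (10707889) and Igfbp5 (10928837). Members were taken by gene symbol from the platform annotation, each with its probe set of highest mean over 46 arrays. Each of the 5 genes had exactly 1 annotated probe set, and all 5 passed the filter on low values (a signal over the median of the array on 4 or more arrays). They are 5 of 9289 genes tested. Mstn lay above the median of its array on 36 of 46 arrays and Fst on 42, and the other members on all 46.

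Myostatin, the product of Mstn, is a secreted factor of the transforming growth factor beta family that is made mainly by muscle fibres and limits muscle mass through activin receptors and the Smad proteins. Follistatin, the product of Fst, binds myostatin and activins outside the cell and keeps them from their receptors. Insulin-like growth factor 1 (Igf1) signals through its receptor tyrosine kinase (Igf1r) and the kinase Akt to promote protein synthesis and to hold back FoxO transcription factors, and insulin-like growth factor binding protein 5 (Igfbp5) is a secreted protein that binds the ligand and is abundant in muscle.

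The samples are both legs of 23 female Sprague-Dawley rats in an intensive care model, 1 array per leg. All rats, those of the shortest window included, were anaesthetised with isoflurane, ventilated, and given the neuromuscular blocker α-cobrotoxin, from snake venom, which stops acetylcholine from reaching its receptor on the fibre (100 µg first, then 250 µg per day). A lever flexed and extended the left ankle passively, 13.3 cycles each minute, during 12 h of each day or, at the shortest duration, during 6 h. The other leg stayed unloaded. The 6 groups are unloaded and loaded legs after 6 h to 4 d (13 rats), 5 to 8 d (4 rats) and 9 to 14 d (6 rats). No untreated rat was analysed here, so changes with time are relative to rats already paralysed for 6 h to 4 d, and a window pools rats of different durations. The comparison of legs addresses the effect of passive movement on immobilised muscle, and the comparison of windows that of time.

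Values are log2 expression by robust multi-array averaging, and array medians ran from 6.066 to 6.202. All 10 listed genes of skeletal muscle fibres were measured, and their mean lay between 12.68 and 13.62 on every array. A rat is named by the label number of its unloaded leg. Legs were paired by label number, which the labels do not spell out. The legs' departures from group means correlated least in rats 27 (r = -0.349), 17 (0.082), 51 (0.183) and 23 (0.205). Rats 17, 21 (r = 0.319) and 27 were left out together as a check. The sample descriptions also carry 5 codes that look like dates, whose step is not named. Codes 1, 2 and 4 hold rats of 6 h to 4 d only, code 5 only later rats, and code 3 holds 4 rats of 6 h to 4 d, 2 of 5 to 8 d and 4 of 9 to 14 d. The code and the window therefore overlap in part, and values with the code as a block or within code 3 are given where they end a call.

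Mstn was lower in both later windows than at 6 h to 4 d in both legs, with the lowest means at 5 to 8 d. Fst was higher in both later windows. Igf1r was higher in both later windows in both legs. Igfbp5 was higher at 9 to 14 d in both legs, and Igf1 at 9 to 14 d in unloaded legs. These Igfbp5 and Igf1 calls ended with the date code as a block and within code 3. Of the member calls in loaded legs, only that of Fst at 9 to 14 d held with the date code as a block. Over all rats Igf1r was slightly lower in loaded legs, and the other members did not pass the test of loading, although Fst was higher in loaded legs by 1.06 at 5 to 8 d and by 0.76 at 9 to 14 d. In unloaded legs 5 of 5 members passed at 9 to 14 d against 6 h to 4 d, where 45.6% of all genes did. Mstn, Fst and Igf1r, 3 of 5, passed at 5 to 8 d against 6 h to 4 d in unloaded legs (35.9% of all genes), and the same 3 of 5 in loaded legs (39% of all genes). In loaded legs 4 of 5 passed at 9 to 14 d against 6 h to 4 d (44.2% of all genes), all but Igf1. Shares of this size among all genes mean that a passing member is not unusual in these comparisons. Between 5 to 8 d and 9 to 14 d 0 of 5 members passed in limma's test in either leg, where 0.226% of all genes passed in unloaded and 0.226% in loaded legs. At an unadjusted p under 0.05 these comparisons had 1445 and 1341 genes.

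**Figure D1:**
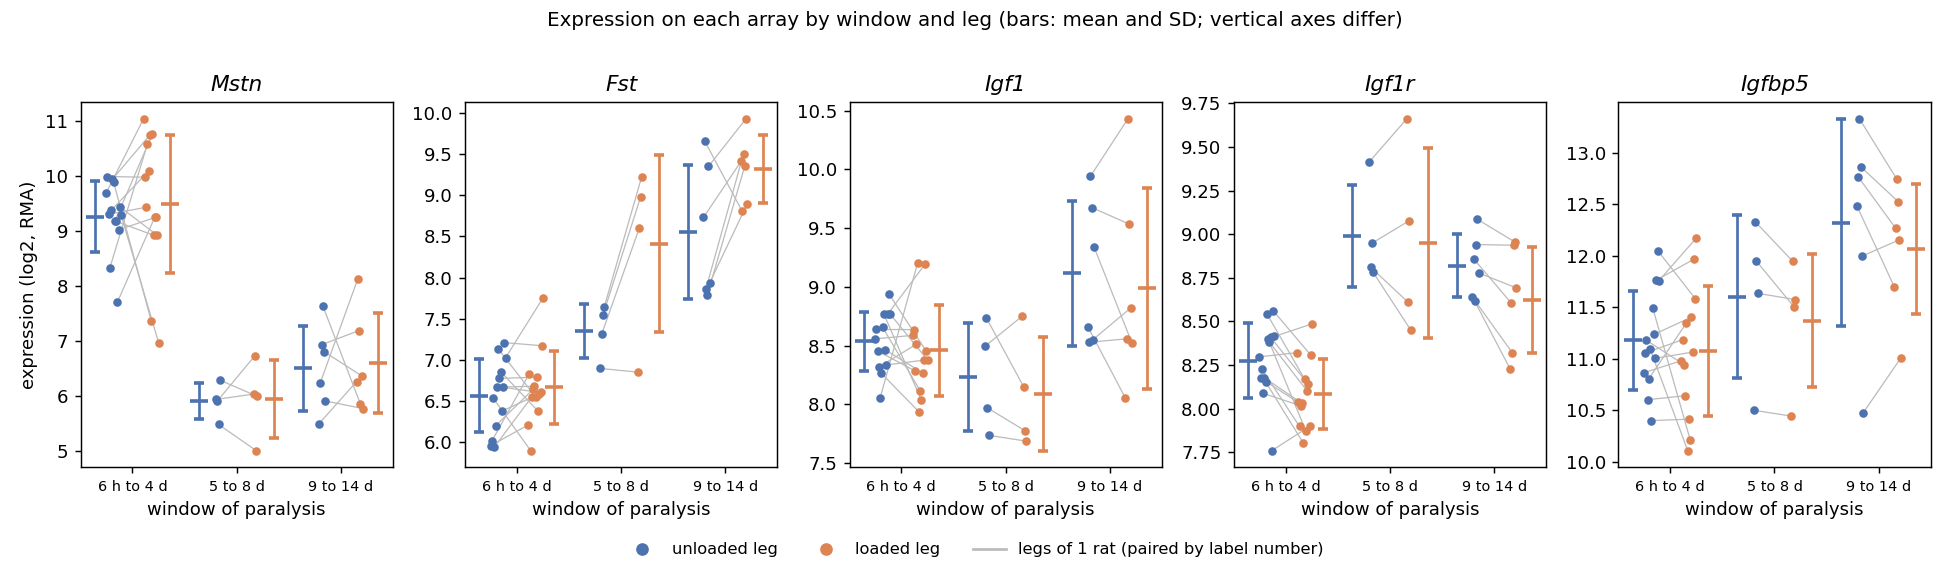
Log2 expression (vertical axes, a different range in each panel) of the 5 genes on each of 46 arrays, by window of paralysis (horizontal axis), for unloaded legs (blue) and loaded legs (orange), with grey lines joining the legs of 1 rat and bars giving the group mean and SD. Mstn falls from means of 9.26 and 9.49 in the shortest window to between 5.91 and 6.60 later, and Fst climbs from 6.57 and 6.67 to 8.55 and 9.31.

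Mstn was high in every unloaded leg of the shortest window. The 13 values ran from 7.71 (rat 31) through a median of 9.30 to 9.99 (rat 13), with a mean of 9.26 ± 0.64 (SD, n = 13). The 4 unloaded legs of 5 to 8 d lay at 5.94, 5.91, 5.49 and 6.29 (rats 41, 43, 53 and 55), and only 1 of them was above its array's median. At 9 to 14 d the 6 unloaded legs lay between 5.50 (rat 45) and 7.64 (rat 51) with a median of 6.53, and 4 were above their array's median. Neither later window overlapped the shortest one in unloaded legs.

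Mstn was lower by limma's estimate at 5 to 8 d, with a log2 difference of -3.35 (SE 0.34, adjusted p = 6.17e-07), and at 9 to 14 d, with a difference of -2.75 (SE 0.30, adjusted p = 1.6e-07). Of the later Mstn values, 1 of 4 unloaded legs at 5 to 8 d and 4 of 6 at 9 to 14 d lay above their array's median, with the same counts in loaded legs. Several later values lie at or below it, where signal over background is not shown. The differences are therefore uncertain in size and are not turned into folds. Between the later windows Mstn differed by 0.60 (95% confidence interval -0.20 to 1.40, adjusted p = 0.476).

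Loaded legs gave the same order with more scatter. In the shortest window loaded legs ran from 6.97 (rat 37) through a median of 9.43 to 11.04 (rat 11), a mean of 9.49 ± 1.26 (SD, n = 13). Rats 23 (7.37) and 37 (6.97) were far lower than the other 11 loaded legs, which all lay at 8.92 or above. Loaded legs held 6.04, 6.73, 5.01 and 6.00 at 5 to 8 d (rats 41, 43, 53 and 55) and ran from 5.78 (rat 59) to 8.13 (rat 47) at 9 to 14 d. The 9 to 14 d values overlapped those of the shortest window, and the 5 to 8 d values did not.

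The Mstn difference in loaded legs was -3.54 at 5 to 8 d (SE 0.59, adjusted p = 1.03e-04 in limma) and -2.89 at 9 to 14 d (SE 0.51, adjusted p = 9.17e-05). With the date code as a block these were -2.24 (adjusted p = 0.0612) and -1.73 (adjusted p = 0.0643), so both calls ended. Within code 3 alone the unloaded legs differed by -2.94 at 5 to 8 d (adjusted p = 0.0695, call ended) and by -2.28 at 9 to 14 d, where the call held. Within code 3 the loaded legs differed by -2.22 (adjusted p = 0.277) and -1.74 (adjusted p = 0.113).

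Fst group means were higher in each later window, and the difference of 9 to 14 d from 6 h to 4 d passed in both legs. Unloaded legs of the shortest window ran from 5.94 (rat 17) through a median of 6.67 to 7.21 (rat 35), a mean of 6.57 ± 0.44 (SD, n = 13), of which 10 lay above their array's median. The 4 unloaded legs of 5 to 8 d lay at 6.90, 7.31, 7.54 and 7.64 (rats 41, 43, 53 and 55), which overlaps the shortest window only through rat 41. The 6 unloaded legs of 9 to 14 d ran from 7.79 (rat 51) through a median of 8.33 to 9.66 (rat 47) and lay above every earlier unloaded leg.

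In loaded legs of the shortest window Fst ran from 5.90 (rat 15) through a median of 6.60 to 7.75 (rat 37), a mean of 6.67 ± 0.45 (SD, n = 13), of which 12 lay above their array's median. Several Fst values of the shortest window lie close to the array medians (6.066 to 6.202), so the sizes of differences from that window are uncertain. Loaded legs of 5 to 8 d lay at 6.85, 8.60, 8.97 and 9.23, with rat 41 again the low one. At 9 to 14 d they ran from 8.80 (rat 47) through a median of 9.38 to 9.93 (rat 57), a mean of 9.31 ± 0.42 (SD, n = 6), above all loaded legs of the shortest window.

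Fst was higher at 9 to 14 d than at 6 h to 4 d by 1.99 on the log2 scale in unloaded legs (SE 0.25, adjusted p = 1.6e-06 in limma) and by 2.65 in loaded legs (SE 0.27, adjusted p = 1.17e-07). Both calls held with the date code as a block and within code 3, where the differences were 1.69 and 2.24. At 5 to 8 d the differences were 0.78 in unloaded legs (SE 0.29, adjusted p = 0.0406) and 1.75 in loaded legs (SE 0.31, adjusted p = 1.94e-04). With the date code as a block they were 0.39 (adjusted p = 0.615) and 1.05 (adjusted p = 0.1), and within code 3 0.28 (adjusted p = 0.839) and 0.69 (adjusted p = 0.559), so both calls ended. The unloaded call at 5 to 8 d also ended without any 1 of rats 11, 13, 15, 17, 19, 31, 43, 53 or 55, with differences from 0.68 to 0.79 and adjusted p from 0.0509 to 0.142, and with cyclic loess (0.69, adjusted p = 0.063), no filter (adjusted p = 0.055), the rat as a random block (adjusted p = 0.0564) and without rats 17, 21 and 27 (0.75, adjusted p = 0.0753). Between 5 to 8 d and 9 to 14 d Fst differed by 1.20 in unloaded legs (SE 0.33, adjusted p = 0.0833), which passed with array quality weights (1.23, adjusted p = 0.00615), and by 0.90 in loaded legs (SE 0.35, adjusted p = 0.226), which was 0.38 without rat 41.

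**Figure D2:**
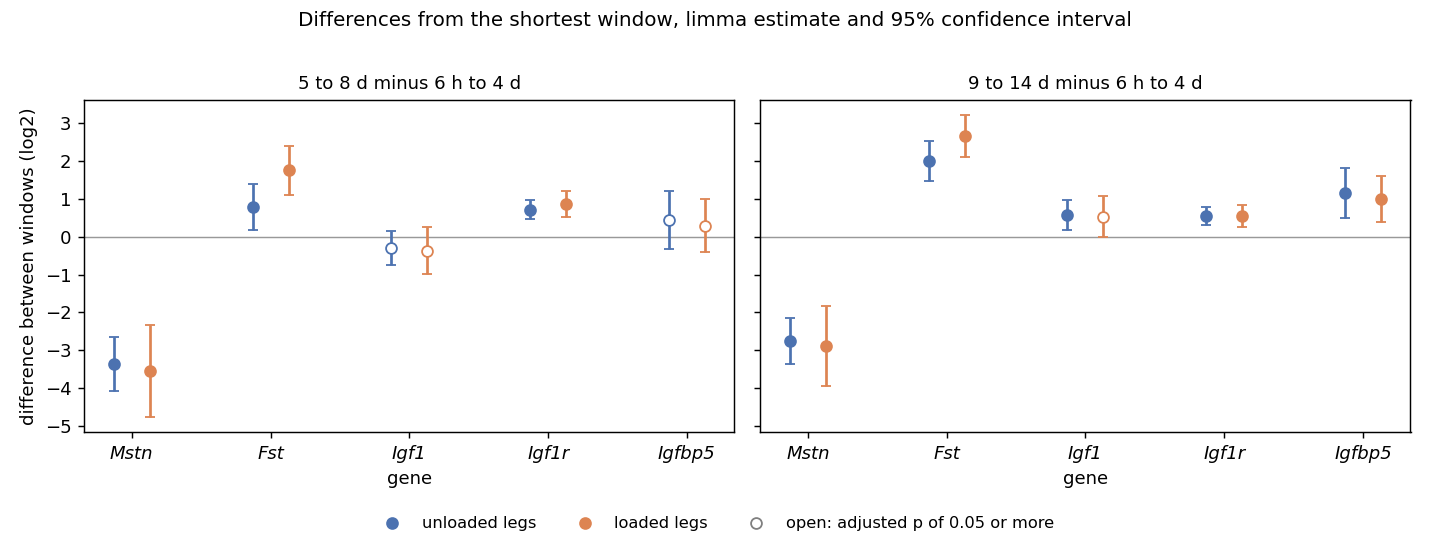
Log2 difference (vertical axis) of each gene (horizontal axis) at 5 to 8 d (left) and 9 to 14 d (right) from 6 h to 4 d, for unloaded (blue) and loaded legs (orange), with limma's 95% confidence interval and open symbols where the adjusted p was 0.05 or more. Mstn lies at -2.75 or lower in all 4 comparisons and Fst at 0.78 or higher, and Igf1 is open in all but the unloaded legs at 9 to 14 d.

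Igf1, the ligand, did not follow the same course. Unloaded legs ran from 8.05 (rat 19) to 8.94 (rat 35) in the shortest window, a mean of 8.54 ± 0.25 (SD, n = 13). They lay at 8.49, 8.74, 7.97 and 7.74 at 5 to 8 d (rats 41, 43, 53 and 55) and at 8.66, 8.53, 9.94, 9.68, 8.55 and 9.34 at 9 to 14 d (rats 45, 47, 49, 51, 57 and 59). Rats 49, 51 and 59 lay above all unloaded legs of the shortest window, and the other 3 late rats lay within its range.

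Igf1 was 0.58 higher on the log2 scale at 9 to 14 d in unloaded legs (SE 0.19, adjusted p = 0.0169 in limma). The call ended without rat 49 (0.41, adjusted p = 0.0744) or rat 51 (0.47, adjusted p = 0.061), with cyclic loess normalisation (0.47, adjusted p = 0.0572), with the date code as a block (0.57, adjusted p = 0.114) and within code 3 (0.50, adjusted p = 0.321).

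In loaded legs Igf1 ran from 7.94 (rat 21) to 9.20 (rat 19) in the shortest window, and rats 49 (10.43) and 51 (9.53) were again the highest at 9 to 14 d, where the others lay between 8.05 and 8.82. The difference was 0.53 (SE 0.26, adjusted p = 0.0999), and it passed the threshold without rat 45, the lowest late loaded leg (0.71, adjusted p = 0.0277), and was 0.24 without rat 49, the highest (adjusted p = 0.41). At 5 to 8 d Igf1 differed by -0.30 in unloaded legs (95% confidence interval -0.76 to 0.15) and by -0.37 in loaded legs (-0.98 to 0.25), and neither passed. With array quality weights both did, at -0.50 (adjusted p = 0.0151) and -0.61 (adjusted p = 0.0491). Between 5 to 8 d and 9 to 14 d the unloaded legs differed by 0.88 (SE 0.25, adjusted p = 0.0874), and without rat 43 or rat 45 this comparison passed, with differences from 0.97 to 1.05 and adjusted p from 0.0248 to 0.0464, as it did with array weights (0.97, adjusted p = 0.00245).

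Macrophage markers were followed beside Igf1. All 13 listed markers were measured, and their mean per array in unloaded legs ran from 7.39 to 8.52 at 6 h to 4 d, from 6.98 to 8.19 at 5 to 8 d and from 7.87 to 9.97 at 9 to 14 d. At 9 to 14 d 7 of 13 passed as higher than at 6 h to 4 d in unloaded legs, where 28.7% of all genes did, and 4 of 13 in loaded legs, close to the 29% of all genes. As lower at 5 to 8 d 2 of 13 passed in unloaded legs and 3 of 13 in loaded legs, where 12.3% and 12% of all genes did. In unloaded legs of rats 49, 51 and 59, where Igf1 was highest, the macrophage mean was 9.97, 9.00 and 9.69, and in rats 45, 47 and 57 it was 7.87, 8.08 and 8.46. Their part in the Igf1 result was not tested. In bulk muscle a change in the number of cells of a type and a change in RNA per cell cannot be told apart.

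Markers of other cells moved with the windows as well. Of 10 muscle fibre markers 5 passed as lower and 1 as higher at 9 to 14 d against 6 h to 4 d in unloaded legs, and 6 as lower and 0 as higher in loaded legs, with a median difference of -0.23 in both. Of 11 fibroblast markers 9 passed as lower at 5 to 8 d in unloaded and 5 in loaded legs (12.3% and 12% of all genes). At 9 to 14 d 4 and 2 did. Of 6 satellite cell markers 3 passed as higher and 2 as lower at 9 to 14 d in each leg. Of 6 endothelial markers 3 and 2 passed as lower there in unloaded and loaded legs. Of 4 tendon markers 1 passed as higher in each leg, and 0 and 3 as lower. The share of all genes that passed as lower at 9 to 14 d was 16.9% in unloaded and 15.2% in loaded legs, and as higher 28.7% and 29%. Between legs, 2 of 11 fibroblast markers passed as higher in loaded legs over all rats, where 1.08% of all genes did. At 9 to 14 d 1 of 11 fibroblast markers passed as higher and 1 of 13 macrophage markers as lower (0.161% and 0.108% of all genes). Markers of the other lists did not pass between legs in these 2 comparisons. The part of these markers in the Mstn, Fst, Igf1r and Igfbp5 results was not tested.

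Igf1r, the receptor, was higher in both later windows. Unloaded legs ran from 7.76 (rat 33) through a median of 8.30 to 8.56 (rat 35) in the shortest window, a mean of 8.28 ± 0.21 (SD, n = 13). They lay at 9.42, 8.81, 8.95 and 8.78 at 5 to 8 d (rats 41, 43, 53 and 55) and between 8.62 (rat 49) and 9.09 (rat 57) at 9 to 14 d. All 10 later unloaded legs lay above all 13 of the shortest window. Loaded legs ran from 7.80 (rat 21) to 8.49 (rat 37) in the shortest window, a mean of 8.08 ± 0.20 (SD, n = 13). The later loaded legs overlapped them in part, with 9.66, 8.61, 9.08 and 8.45 at 5 to 8 d and values from 8.23 (rat 45) to 8.96 (rat 57) at 9 to 14 d.

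Igf1r was 0.71 higher at 5 to 8 d in unloaded legs (SE 0.13, 1.64-fold, adjusted p = 1.9e-04 in limma) and 0.87 in loaded legs (SE 0.17, 1.82-fold, adjusted p = 3.99e-04). At 9 to 14 d it was 0.55 higher in unloaded legs (SE 0.11, 1.46-fold, adjusted p = 3.7e-04) and 0.54 in loaded legs (SE 0.14, 1.45-fold, adjusted p = 0.00424). With the date code as a block the calls in unloaded legs held, and those in loaded legs ended, at 0.74 (adjusted p = 0.057) and 0.41 (adjusted p = 0.168). Within code 3, with fewer rats, the unloaded legs differed by 0.83 (adjusted p = 0.155) and 0.48 (adjusted p = 0.156) and the loaded legs by 0.93 (adjusted p = 0.277) and 0.32 (adjusted p = 0.468).

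Igfbp5, the binding protein, was higher at 9 to 14 d. Unloaded legs ran from 10.40 (rat 23) through a median of 11.09 to 12.05 (rat 35) in the shortest window. They lay at 10.50, 12.33, 11.95 and 11.63 at 5 to 8 d (rats 41, 43, 53 and 55) and at 12.48, 12.76, 13.33, 12.86, 11.99 and 10.47 at 9 to 14 d (rats 45, 47, 49, 51, 57 and 59). Rat 59 lay within the low end of the shortest window, and 4 of the 6 late rats lay above all of it. Loaded legs ran from 10.11 (rat 21) to 12.17 (rat 37) in the shortest window, and at 9 to 14 d their median was 12.21 and the highest 12.74 (rat 49), with rat 59 again the lowest.

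The Igfbp5 difference at 9 to 14 d was 1.14 in unloaded legs (SE 0.32, 2.21-fold, adjusted p = 0.00602 in limma) and 0.99 in loaded legs (SE 0.29, 1.98-fold, adjusted p = 0.00876). With the date code as a block these were 0.93 (adjusted p = 0.109) and 0.46 (adjusted p = 0.401), and within code 3 1.22 (adjusted p = 0.0695) and 0.61 (adjusted p = 0.335), so both calls ended. Igfbp5 at 5 to 8 d differed by 0.43 in unloaded legs (95% confidence interval -0.34 to 1.19) and by 0.29 in loaded legs (-0.41 to 0.99). The unloaded difference passed with array quality weights (0.72, adjusted p = 0.0188), and leaving out 1 rat it ran from 0.18 (without rat 43) to 0.79 (without rat 41). In code 3 the 5 to 8 d differences were below 0, at -0.23 and -0.50, and rat 41, the lowest Igfbp5 value of its window in both legs, is 1 of the 2 rats behind them.

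The order of the 6 group means differed between genes. For Mstn both legs of the shortest window stood above the rest by a gap larger than the SD of either neighbouring group, and the 4 later groups did not separate from each other. For Fst the order ran from loaded legs at 9 to 14 d down to unloaded legs at 6 h to 4 d, and only the step between unloaded legs at 5 to 8 d (7.35 ± 0.33) and loaded legs at 6 h to 4 d (6.67 ± 0.45) exceeded the larger SD of the pair. For Igf1r the 4 later groups stood above both groups of the shortest window, and only the step from loaded legs at 9 to 14 d (8.62 ± 0.30) to unloaded legs at 6 h to 4 d exceeded the spread. For Igf1 and Igfbp5 no pair of neighbouring groups differed by more than their spread.

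Loading over all 23 rats passed for 1 of 5 members, where 2.9% of all genes passed. This was Igf1r, lower in the loaded leg of 18 of 23 rats by a mean log2 difference of -0.17 (SE 0.04, adjusted p = 0.0351 in limma, a 1.12-fold change). Leg differences of Igf1r ran from -0.52 to 0.25. It was lower in the loaded leg in 10 of 13 rats at 6 h to 4 d (mean -0.19, adjusted p = 0.194), in 2 of 4 at 5 to 8 d (mean -0.04) and in 6 of 6 at 9 to 14 d (mean -0.20, adjusted p = 0.312). The call lay close to the threshold. It ended without any 1 of rats 15, 29, 31, 35, 43, 45 or 49 (differences from -0.17 to -0.16, adjusted p from 0.0521 to 0.0659), without rats 17, 21 and 27 together (-0.14, adjusted p = 0.0657), with no filter on low values (adjusted p = 0.0512), within date code 3 (-0.12, adjusted p = 0.458) and without the pairing of legs (adjusted p = 0.649).

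Fst had the largest leg difference of the 5 members over all rats, 0.44 higher in loaded legs (SE 0.13, 95% confidence interval 0.18 to 0.70), and missed the threshold (adjusted p = 0.0555 in limma). It was higher in the loaded leg of 16 of 23 rats. At 6 h to 4 d the mean difference was 0.10 (8 of 13 rats higher, from -0.64 to 0.82). Rats 43, 53 and 55, of 5 to 8 d, were higher in the loaded leg by 1.28 to 1.58 and rat 41 differed by -0.04, a mean of 1.06 (SE 0.30, adjusted p = 0.28). At 9 to 14 d 5 of 6 rats were higher and rat 47 was lower by -0.85, a mean of 0.76 (SE 0.25, adjusted p = 0.168).

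Other settings moved Fst to the other side of the threshold. Over all rats it passed with cyclic loess normalisation (0.45, adjusted p = 0.046), with array quality weights (0.42, adjusted p = 0.0225), and without any 1 of rats 15, 21, 23, 29, 41 or 47 (0.46 to 0.50, adjusted p from 0.0185 to 0.0498). At 5 to 8 d it passed with array weights (1.31, adjusted p = 0.00109) and without rat 41 (1.43, adjusted p = 0.0378), and at 9 to 14 d without rat 47 (1.08, adjusted p = 0.0259). The loading effect on Fst at 5 to 8 d exceeded that at 6 h to 4 d by 0.96 (SE 0.34, adjusted p = 0.693), which passed with array weights (1.29, adjusted p = 0.0112). The effect at 9 to 14 d exceeded that at 6 h to 4 d by 0.66 (SE 0.30, adjusted p = 0.635) and differed from that at 5 to 8 d by -0.30 (SE 0.39).

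**Figure D3:**
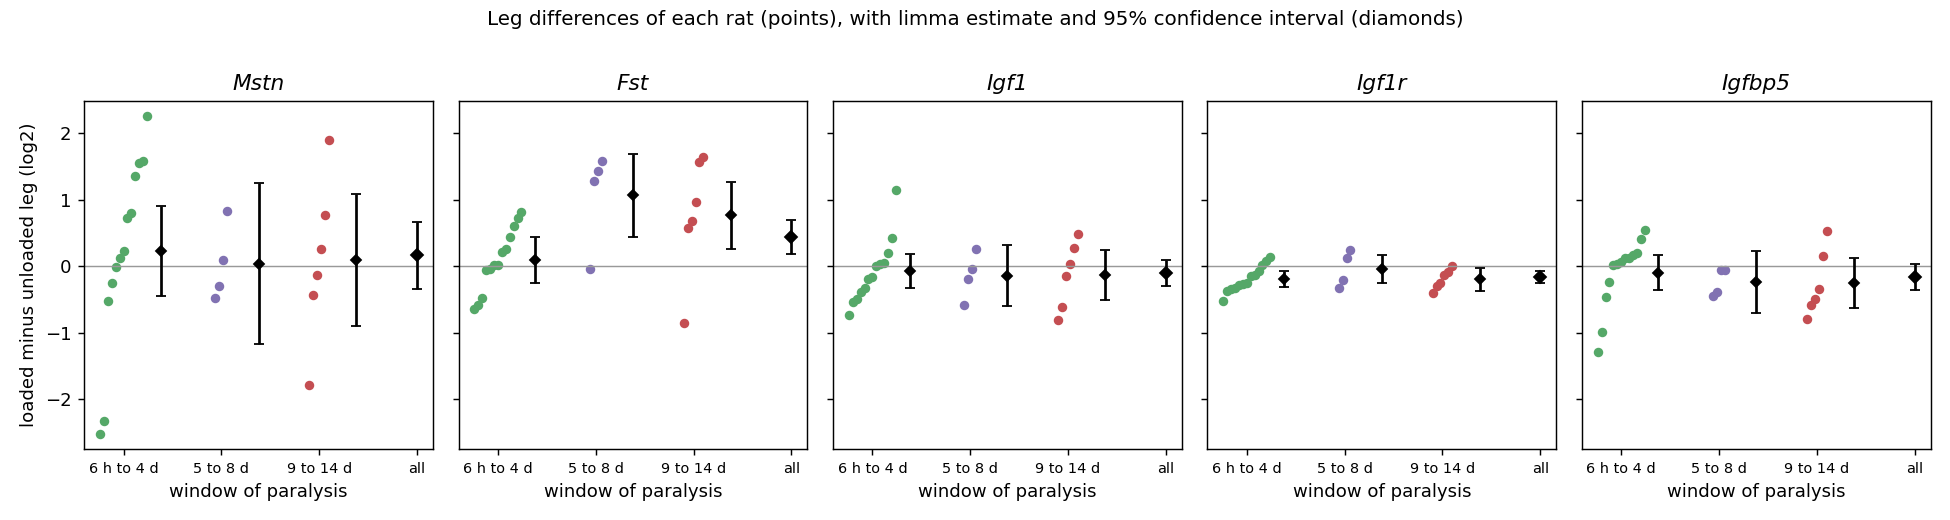
Loaded minus unloaded leg (log2, vertical axis, shared by all panels) for each of 23 rats by window of paralysis (horizontal axis; points, ordered by value), with limma's estimate and 95% confidence interval for each window and for all rats (black diamonds). For Fst 3 of 4 rats at 5 to 8 d and 5 of 6 at 9 to 14 d lie above 0, Igf1r lies just below 0 in 18 of 23 rats, and Mstn spreads from -2.51 to 2.25.

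Mstn showed the widest spread between legs of a rat. Its leg difference ran from -2.51 (rat 23) and -2.32 (rat 37) to 2.25 (rat 17), higher under load in 13 rats and lower in 10, with a mean of 0.16 (95% confidence interval -0.34 to 0.67, adjusted p = 0.769 in limma). Rat 17 is 1 of the rats whose legs correlated least. Without rats 17, 21 and 27, whose leg differences were 2.25, 0.80 and 1.58, the mean was -0.05. Rats 23 and 51 stayed in, at -2.51 and -1.78. Their legs correlated less (r = 0.205 and 0.183) than those of rat 21 (r = 0.319). Igf1 differed by -0.10 (-0.29 to 0.09, 14 of 23 lower) and Igfbp5 by -0.16 (-0.36 to 0.03, 12 of 23 lower).

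Within single windows loading passed for 0 of 5 members in limma's test. The share of all genes was 0% at 6 h to 4 d and 0% at 5 to 8 d, where 1075 and 644 genes had an unadjusted p under 0.05, and 0.269% at 9 to 14 d, where 1205 genes had one. Fst at 5 to 8 d and at 9 to 14 d and Igf1r at 6 h to 4 d and at 9 to 14 d had confidence intervals that excluded 0 before adjustment over genes. The loading effect differed between windows for 0 of 5 members in each of the 3 comparisons of windows, and for 0% of all genes in each, with 717, 557 and 248 genes at an unadjusted p under 0.05.

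Promoter sequence was at hand for the 3 members of the insulin-like growth factor arm, which share a ligand system. All 3 passed as higher in unloaded legs at 9 to 14 d, where 28.7% of all genes did. With the date code as a block the calls of Igf1 and Igfbp5 ended, and within code 3 those of all 3. In loaded legs Igf1 did not pass. RefSeq promoter windows matched 3 of 5 members, and Mstn and Fst had no entry. The 250 bases before the RefSeq start are given 5′ to 3′ on the gene's strand in build GRCr8, with capitals marking CANNTG, the E-box bound by MyoD-family and other basic helix-loop-helix factors, and GGGCGG or its complement CCGCCC, the GC box. E-boxes occur in 65.5% and GC boxes in 30.5% of 33469 promoter windows of this length, on either strand.
Igf1, chr7:24172282-24172531, plus strand: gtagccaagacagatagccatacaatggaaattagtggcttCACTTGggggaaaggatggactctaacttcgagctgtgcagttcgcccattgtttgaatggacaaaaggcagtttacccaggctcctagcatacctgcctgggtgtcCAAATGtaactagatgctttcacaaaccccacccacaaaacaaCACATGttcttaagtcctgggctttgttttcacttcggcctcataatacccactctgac
Igf1r, chr1:130959747-130959996, plus strand: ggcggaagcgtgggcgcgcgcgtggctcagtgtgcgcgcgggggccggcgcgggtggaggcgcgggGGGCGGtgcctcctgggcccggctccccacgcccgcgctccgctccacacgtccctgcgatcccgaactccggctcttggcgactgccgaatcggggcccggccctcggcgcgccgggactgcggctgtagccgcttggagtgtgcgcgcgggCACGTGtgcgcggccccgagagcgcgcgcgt
Igfbp5, chr9:81914188-81914437, minus strand: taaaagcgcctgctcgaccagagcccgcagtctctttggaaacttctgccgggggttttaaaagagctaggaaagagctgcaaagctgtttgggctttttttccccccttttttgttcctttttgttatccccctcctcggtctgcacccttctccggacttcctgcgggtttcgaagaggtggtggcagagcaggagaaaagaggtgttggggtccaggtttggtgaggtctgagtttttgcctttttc
The Igf1 window holds 3 E-boxes and 0 GC boxes with 46.8% G or C, the Igf1r window 1 E-box and 1 GC box with 79.6% G or C, and the Igfbp5 window 0 of either with 51.6% G or C. These counts describe letters in the windows, and the arrays measured no factor's binding there.

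The genes most like each member over the 46 arrays were picked by Pearson correlation, given as a description over samples that share windows and rats. Mstn was most like Atp1b2 (r = 0.932), a sodium pump subunit, Fn3k (r = 0.908), a kinase of glycated proteins, and Pkm (r = 0.908), the glycolytic pyruvate kinase. Fst was most like Rhot1 (r = 0.933), a mitochondrial transport GTPase, Tmem158 (r = 0.913) and Sdr9c7 (r = 0.887). Igf1 was most like Man2a1 (r = 0.87), a Golgi mannosidase, Apoe (r = 0.856), a lipid carrier that macrophages secrete, and Naaa (r = 0.854), a lysosomal amidase. Igf1r was most like Klhl40 (r = 0.883), a muscle Kelch protein, Elavl1 (r = 0.879), an RNA-binding protein, and Coq8b (r = 0.875). Igfbp5 was most like Stard6 (r = 0.811), Sh3pxd2a (r = 0.801), a scaffold of podosomes, and Kcnip3 (r = 0.793). After group means were removed, the leading correlations fell to 0.715 for Mstn with Atp1b2 and 0.674 for Fst with Rhot1, and that of Igf1 with Man2a1 was 0.833. Among the members Mstn ran against Igf1r (r = -0.75) and Fst (r = -0.71), and Igf1 was nearly unrelated to Mstn (r = -0.03).

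Of 81 other genes listed for these pathways, 59 were tested. Loading passed for 0 of 59 in each of the 4 loading comparisons. Of all genes 2.9% passed over all rats, 0% at 6 h to 4 d, 0% at 5 to 8 d and 0.269% at 9 to 14 d. At shares this low a count of 0 is not unusual. The closest of the 59 to the threshold was Foxo1 over all rats, 0.27 higher in loaded legs (SE 0.08, adjusted p = 0.0599 in limma). At 9 to 14 d against 6 h to 4 d 11 passed as higher and 20 as lower in unloaded legs, where 28.7% of all genes passed as higher and 16.9% as lower. In loaded legs 12 passed as higher and 18 as lower (29% and 15.2% of all genes). At 5 to 8 d against 6 h to 4 d the counts were 7 higher and 14 lower in unloaded legs (23.6% and 12.3% of all genes), and 9 higher and 13 lower in loaded legs (26.9% and 12% of all genes). The shares for 9 to 14 d apply also to the counts of each list below.

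Of the ligands, processing enzymes and receptors of myostatin and activins 9 of 13 were tested, and in unloaded legs at 9 to 14 d 1 passed as higher and 3 as lower. Acvr1b, a type I activin receptor through which myostatin can signal, was lower by -0.71 (SE 0.11, adjusted p = 2.55e-05 in limma), from 8.63 ± 0.23 (SD, n = 13) to 7.92 ± 0.23 (SD, n = 6), without overlap. Acvr2b, the type II receptor that binds myostatin, was lower by -0.57 (SE 0.12, adjusted p = 6.74e-04), from 6.65 to 6.08, close to the array medians. Bmp1, a protease that releases myostatin from its latent complex, was higher by 0.55 (SE 0.17, adjusted p = 0.0111), and this call ended without rat 49 (0.41, adjusted p = 0.0502). In loaded legs these 3 genes differed by -0.96, -0.51 and 0.89, and all 3 passed, although the Acvr1b call ended with the date code as a block (adjusted p = 0.0555). Within code 3 the unloaded calls of Acvr1b (-0.59, adjusted p = 0.0564) and Bmp1 (0.72, adjusted p = 0.136) ended, and the loaded calls of all 3 (adjusted p = 0.1, 0.0633 and 0.197). The median of the list in unloaded legs was -0.09, against 0.07 over all genes.

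Of 10 other secreted inhibitors of myostatin and activins 7 were tested, and 1 passed as lower in unloaded legs at 9 to 14 d and 0 as higher. This was Wfikkn1, which binds myostatin and its propeptide, at -0.25 (SE 0.10, adjusted p = 0.0352 in limma). The call ended with the date code as a block (adjusted p = 0.993), within code 3 (adjusted p = 0.949), without rats 17, 21 and 27 (-0.22, adjusted p = 0.0965) and without any 1 of rats 13, 19, 21, 29, 49, 51, 57 or 59 (-0.24 to -0.22). In loaded legs 1 passed in each direction, and 0 passed with the date code as a block or within code 3. Wfikkn1 was the lower one there (-0.24, adjusted p = 0.0405 in limma). Its loaded call also ended without any 1 of 11 single rats (adjusted p from 0.0519 to 0.102). Among these 7 genes and Fst, Fst alone passed as higher in unloaded legs.

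Of 10 Smad pathway genes 8 were tested, with 1 higher and 2 lower in unloaded legs at 9 to 14 d. Smad2, which carries the myostatin signal to the nucleus, was higher by 0.32 (SE 0.06, adjusted p = 2.62e-04 in limma) in unloaded and by 0.26 (adjusted p = 0.0144) in loaded legs. The loaded call ended with cyclic loess (0.16, adjusted p = 0.126) and without rat 49 or rat 51 (0.21 to 0.22, adjusted p from 0.0501 to 0.0581). Within code 3 the Smad2 calls ended in unloaded legs (0.31, adjusted p = 0.0914) and loaded legs (0.37, adjusted p = 0.163). Zfyve9, an anchor that presents Smad2 to the receptor, was lower by -0.63 and -0.53. Smad7, an inhibitor of the pathway, was lower by -0.38 in unloaded legs (adjusted p = 0.0215), a call that ended with the date code as a block (adjusted p = 0.262), with the rat as a random block (adjusted p = 0.0561), within code 3 (-0.22, adjusted p = 0.528), without rat 51 (-0.27, adjusted p = 0.0897) and without rats 17, 21 and 27 (-0.33, adjusted p = 0.0563).

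Of 15 other ligands, receptors, binding proteins and proteases of the growth factor arm 9 were tested. In unloaded legs at 9 to 14 d 1 passed as higher and 3 as lower, and in loaded legs 1 and 4. Stc1, which inhibits the proteases that cleave binding proteins, was lower by -1.18 (SE 0.34, adjusted p = 0.00781 in limma) and -1.07 in loaded legs. Igfbp6, a binding protein that prefers Igf2, was lower by -1.04 (SE 0.30, adjusted p = 0.00778) and -0.79 in loaded legs, opposite in sign to Igfbp5. Igf2r, which takes up Igf2 for degradation, was higher by 0.62 (SE 0.18, adjusted p = 0.00639) and 0.65. The calls for all 3 genes ended in both legs within code 3 and with the date code as a block, where the unloaded differences were -0.55, -0.31 and 0.39. Stc1 lay below every array median in both windows on average (5.96 and 4.78 in unloaded legs), so its size is uncertain.

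Of 33 genes from the receptor's adaptors to its targets 26 were tested, with 8 higher and 11 lower in unloaded legs at 9 to 14 d and 8 higher and 9 lower in loaded legs. Of all genes 28.7% passed as higher and 16.9% as lower in unloaded legs, and 29% and 15.2% in loaded legs. With the date code as a block 10 and 8 of the 26 passed, and within code 3 6 and 2. The share of all genes that passed under these 2 settings is not given here, so these counts are not compared with it. Foxo1, the transcription factor that Akt restrains, was lower by -1.77 (SE 0.26, adjusted p = 1.05e-05 in limma), from 10.63 ± 0.61 (SD, n = 13) to 8.87 ± 0.34 (SD, n = 6), without overlap, and by -1.70 in loaded legs, a call that ended within code 3 (-1.24, adjusted p = 0.0656). Ddit4, a stress-induced inhibitor of the growth kinase mTOR, was lower by -1.78 (SE 0.36, adjusted p = 4.21e-04) and -1.80, and both of its calls ended with the date code as a block (-0.91, adjusted p = 0.149, and -0.76, adjusted p = 0.296). Within code 3 its loaded call ended (adjusted p = 0.27). Irs1, the adaptor that links the receptors of insulin and Igf1 to the kinase PI3K, was lower by -1.05 (SE 0.24, adjusted p = 0.00116) and -0.98, and the loaded call ended with the date code as a block (-0.73, adjusted p = 0.0756). Within code 3 both Irs1 calls ended (-0.77, adjusted p = 0.0784, and -0.82, adjusted p = 0.21). The list's median was -0.12 in unloaded legs.

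**Figure D4:**
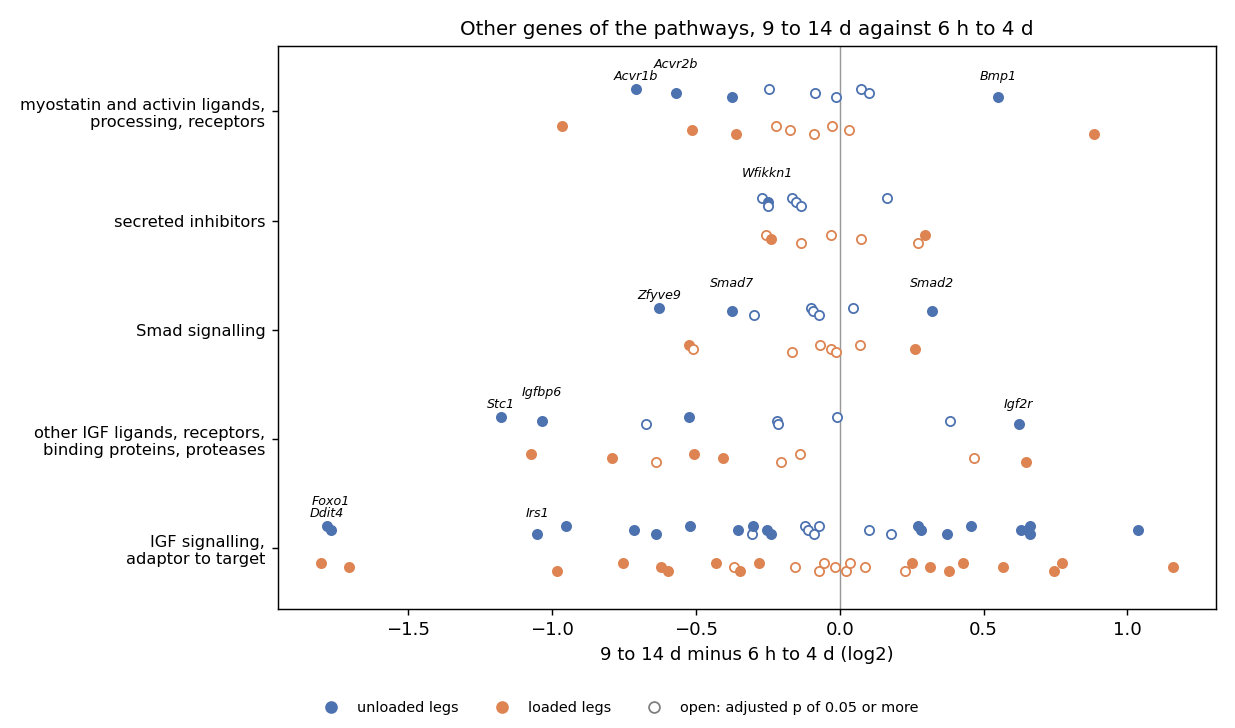
Log2 difference of 9 to 14 d from 6 h to 4 d (horizontal axis) for 59 other genes of the pathways in 5 lists (vertical axis), in unloaded (blue) and loaded legs (orange), with open symbols where limma's adjusted p was 0.05 or more and names for the genes given in the text. In unloaded legs 11 filled symbols lie right of 0 and 20 left of it, and Foxo1 and Ddit4 lie farthest left.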

How the data were processed

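Both gastrocnemius muscles of 23 rats were measured on 46 single-colour Affymetrix arrays. The deposited log2 values were made by the authors with RMA (background correction, quantile normalisation and probe summary), per the submitters' processing notes, of a version not given in the sources used here. Quantile normalisation can remove a shift shared by most genes, and the number of arrays limits the precision. Of 26208 probe sets 15088 had 1 annotated symbol, 323 several and 10797 none listed. A probe set was kept if above its array's median on at least 4 arrays, and the brightest kept one stood for its gene (9289 genes).

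The test was limma 3.58.1 (R 4.3.3; two-sided), adjusted by Benjamini and Hochberg's method across those genes, with 0.05 as threshold. The effect of loading came from a single model of 46 arrays blocked by rat, and windows were compared separately among 23 unloaded and 23 loaded legs. The scripts were tested on simulated data. Nothing says how many RNA extractions stand behind an array, so p-values measure the spread between these rats and legs. Pairing by label number was inferred: in 21 of 23 rats the legs' departures from group means had r over 0.1 (median 0.602). Of 23 unloaded legs 15 correlated best with the assigned loaded leg, and of 23 loaded legs 13 with the assigned unloaded leg.

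Named were the 5 members, the 3 genes most correlated with each, and of each pathway list at most the 3 genes of largest difference among those passing in unloaded legs at 9 to 14 d. The loading value of Foxo1 was added after it was seen. The members, lists and tests were chosen with earlier results of these data known. Sequences and figures were made with Python.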

Additional observations from a re-analysis of the deposited data

How the results depend on the processing

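Counts are of the 5 members that passed. The share of all genes that passed under each changed setting is not given here. A change in these counts is therefore not told apart from a change that all genes share. Over all 23 rats loading passed for 1, against 0 without the pairing of legs (no replicate block), 0 with no filter, 0 without rats 17, 21 and 27, 0 within date code 3, 2 with cyclic loess and 2 with array quality weights, and between 0 and 2 when 1 rat was left out. Array weights gave 1 at 5 to 8 d and 1 for the gap of the loading effect between 5 to 8 d and 6 h to 4 d. Leaving out 1 rat gave 0 to 1 at 5 to 8 d, 0 to 1 at 9 to 14 d and, between the later windows in unloaded legs, 0 to 1, where array weights gave 2. In unloaded legs the 9 to 14 d count of 5 was 3 with the date code as a block and 2 within code 3, and the 5 to 8 d count of 3 was 5 with array weights and 0 within code 3. In loaded legs the 9 to 14 d count of 4 was 1 and 1, and the 5 to 8 d count of 3 was 0 and 0, under the same block and within code 3. Fewer rats enter code 3, and the differences there are smaller for some members and larger for others. The cause of these changes was not tested.

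Values that changed sign were these. For loading without rats 17, 21 and 27 Mstn was -0.047 over all rats and -0.16 at 6 h to 4 d, and Igfbp5 was 0.094 at 6 h to 4 d. Within code 3 Mstn was -0.26 and Igfbp5 0.053 at 6 h to 4 d, Igf1r was 0.022 at 5 to 8 d, the Fst gap between the later windows was 0.14, and Igfbp5 at 5 to 8 d against 6 h to 4 d was -0.23 in unloaded and -0.50 in loaded legs (-0.20 there with the code as a block). Within code 3 Wfikkn1 was 0.017 in unloaded legs. With array weights Mstn was -0.32 and Igf1r 0.067 at 5 to 8 d, and Smad7 0.0012 in loaded legs. Leaving out 1 rat, the loading difference of Igfbp5 at 6 h to 4 d ran from -0.15 to 5.3e-05, those at 5 to 8 d from -0.22 to 0.21 for Mstn, -0.28 to 0.0052 for Igf1 and -0.13 to 0.058 for Igf1r, those at 9 to 14 d from -0.27 to 0.47 for Mstn and -0.25 to 0.0078 for Igf1, and the Fst gap between the later windows from -0.67 to 0.022. Of these only the Wfikkn1 difference had passed the test. The sets without rats 17, 21 and 27 in window comparisons were chosen after seeing the data. Another probe set per gene could not be tried, since each member has 1.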
